A study of Mus musculus with 9 samples.

Results

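Genes for 10 secreted proteins of innate defence were followed in the lactating mammary gland: Defb1, Bpil1 (the older symbol of Bpifb2), Spink5, Lcn2, Slpi, S100a8, S100a9, Camp, Saa3 and Lpo. They were chosen with values of these data known, because Defb1, Bpil1 and Spink5 stood out between genotypes, and every probe carrying one of the 10 symbols was used. The 10 genes have 12 probes, with a pair each for Defb1 and Slpi, among 27962 gene names and 41174 probes on the array. RNA came from mammary gland number 4, taken from dams on lactation day 2 after their last of several consecutive litters, and was labeled with Cy3 for 1-color Agilent arrays, 1 array for each mouse. The 4 WT dams and the 5 hNAG-1 dams carry the same strain background in the labels, written C57BL/7, and the labels name no treatment. The hNAG-1 dams express the human protein NAG-1, also named GDF15, from a transgene active in all tissues, and the labels do not say which of the 2 existing transgenic lines each mouse came from. The array has no probe for the human transgene. Mouse Gdf15 had a mean of 144 ± 50.4 in 4 WT arrays and of 76.7 ± 21.9 in 5 hNAG-1 arrays (± SD), which does not check the genotype labels.

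Milk and the epithelium that makes it defend both the gland and the suckling pup with proteins that kill microbes, starve them or restrain the host's own proteases. Defb1 encodes a beta-defensin, a small cationic peptide released by epithelia, and Camp encodes the cathelicidin precursor stored in neutrophil granules. Bpifb2 belongs to the family of lipid-binding proteins related to bactericidal/permeability-increasing protein. Lcn2 binds the siderophores with which bacteria collect iron, Lpo is the lactoperoxidase of milk and saliva, and Saa3 is an acute phase protein made in the mammary gland. S100a8 and S100a9 pair to form calprotectin, which chelates metals and is abundant in neutrophils and in stressed epidermis. Slpi inhibits neutrophil elastase and cathepsin G, and Spink5 encodes LEKTI, which inhibits kallikreins in the outer epidermis.

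All values are intensities with the background subtracted by the scanner software, scaled so that every array has the same 75th percentile, and a probe was called well above background as that software reports it. The share of features well above background ranged from 59.8% to 76.1%, and was lowest in hNAG-1 2, hNAG-1 3 and hNAG-1 4 (60.3%, 64.6% and 59.8%). There were 3 slides. WT 1 was alone on slide 1, hNAG-1 1 to 4 shared slide 2, and slide 3 carried hNAG-1 5 beside WT 2 to 4, so genotypes can be compared within slide 3 alone. One array, hNAG-1 4, stood apart for markers of epidermis and granulocytes, and results that rest on it are also given without it. All 12 luminal and milk markers, such as Csn2 and Wap, were well above background on every array, as were all 7 adipocyte markers. In whole gland RNA, fewer cells of a type and less RNA per cell cannot be told apart. Precision is limited by the number of arrays.

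The probes matter for Defb1 and Slpi, which have 2 each. The Defb1 probes are nearly the same sequence, placed 11 bases apart at chr8:20577467-20577526 and chr8:20577478-20577537 of mouse build mm7, so they are not independent measurements. Their first 30 bases are shown with the shared run in capitals. In all, 49 of the 60 bases are shared.
Defb1 A_51_P231103: caactgttgtaAGAGCTGACAGTAGTTTGA
Defb1 A_52_P321140: AGAGCTGACAGTAGTTTGAAGAATGGACAT
The Slpi probes share no run longer than 5 bases and lie 5214 bases apart on chromosome 2. Their first 30 bases are shown because their values disagree.
Slpi A_52_P472324: ttactgttttaccactaacatctccttttg
Slpi A_51_P135148: tgagtaacaggagccacaaggtatgtctga
The S100a8 and Camp probes, shown whole because these genes set 1 array apart, lie at chr3:90800058-90800117 and chr9:109544107-109544166.
S100a8 A_51_P256827: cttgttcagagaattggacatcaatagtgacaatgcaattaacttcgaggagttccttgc
Camp A_51_P180423: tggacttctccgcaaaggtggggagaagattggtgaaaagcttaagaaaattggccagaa
For Bpil1, measured by 1 probe at chr2:153635900-153635959, the first 30 bases are given.
Bpil1 A_51_P455572: aagagccagttcctcaagaggcttttgtcc
The probes of Lcn2, S100a9, Saa3 and Lpo lie on chromosomes 2, 3, 7 and 11 of that build. Exon positions of the probes were not analysed here.

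Among the proteins that act on microbes directly, Defb1 and Bpil1 were lower in hNAG-1 glands, and for both genes every WT array was above every hNAG-1 array. The scaled intensity of Defb1 (A_51_P231103) was 666, 1899, 4721 and 1216 in WT 1 to 4 and 567, 171, 414, 623 and 485 in hNAG-1 1 to 5. WT 3 was highest, and the lowest WT array was close to the highest hNAG-1 array (666 against 623). The WT mean was 2126 ± 1802 (SD, n = 4) and the hNAG-1 mean 452 ± 176 (SD, n = 5), for a log2 difference of -1.99 (standard error 0.57). The overlapping second probe (A_52_P321140) gave 752, 1823, 4358 and 1142 in WT and 598, 152, 407, 608 and 531 in hNAG-1. Its log2 difference was -1.97, and the ratio between the probes stayed between 0.886 and 1.12 on the 9 arrays. The difference of A_51_P231103 was -2.14 without hNAG-1 4, -1.48 without WT 3 and -2.19 with slide as a block, which compares the genotypes within slide 3. The spread of Defb1 within genotypes was wide, with an SD of log2 above that of 95% of the probes well above background.

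The scaled intensity of Bpil1 was 80.5, 252, 132 and 119 in WT 1 to 4 and 34.4, 13.7, 18.4, 9.90 and 34.0 in hNAG-1 1 to 5. The probe stood well above background on each of the 4 WT arrays but on 2 of 5 hNAG-1 arrays, hNAG-1 1 and hNAG-1 5. Means were 146 ± 74.1 (SD, n = 4) and 22.1 ± 11.5 (SD, n = 5), a log2 difference of -2.77 (standard error 0.45). The values of hNAG-1 2, hNAG-1 3 and hNAG-1 4 lay below the lowest intensity well above background on those arrays (26.6, 20.3 and 31.7), so the size of this difference is not well measured, and with values under 20 raised to that floor it was -2.43. The 3 arrays on which Bpil1 was not well above background were those with the lowest shares of features well above background, and the part of this in the difference was not tested. On slide 3, where that share was 73.3% for hNAG-1 5 and 70.0% to 76.1% for WT, the log2 difference was -2.22. It was -2.52 without hNAG-1 4 and -1.16 after normexp background correction, which raises dim values.

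Lpo, the peroxidase of milk, did not separate the genotypes. Its scaled intensity was 40102, 23067, 29450 and 28624 in WT and 32483, 35986, 31766, 33045 and 38039 in hNAG-1. The hNAG-1 values lay within the WT range, and the log2 difference was 0.20 (standard error 0.18), with 0.21 without hNAG-1 4 and 0.50 with slide as a block. Lpo had the smallest spread within genotypes of the 10 genes, with an SD of log2 above that of 30.6% of the probes well above background.

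Lcn2, the siderophore binder, was 37540, 24567, 50059.8 and 57872 in WT and 41535, 43253, 41818, 69889.6 and 40301 in hNAG-1. The genotypes overlapped, hNAG-1 4 was highest, and the log2 difference was 0.19 (standard error 0.28) over all arrays and 0.045 without hNAG-1 4. Saa3, the acute phase protein, was 42766, 22195, 96615 and 85820.1 in WT and 47478, 35499, 54826, 135872 and 13914 in hNAG-1. Here too hNAG-1 4 was highest, and hNAG-1 5 was lowest of all. The log2 difference of Saa3 was -0.25 (standard error 0.65) over all arrays, -0.65 without hNAG-1 4, 0.17 without hNAG-1 5 and -2.03 with slide as a block, so that its direction rested on single arrays.

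**Figure D1:**
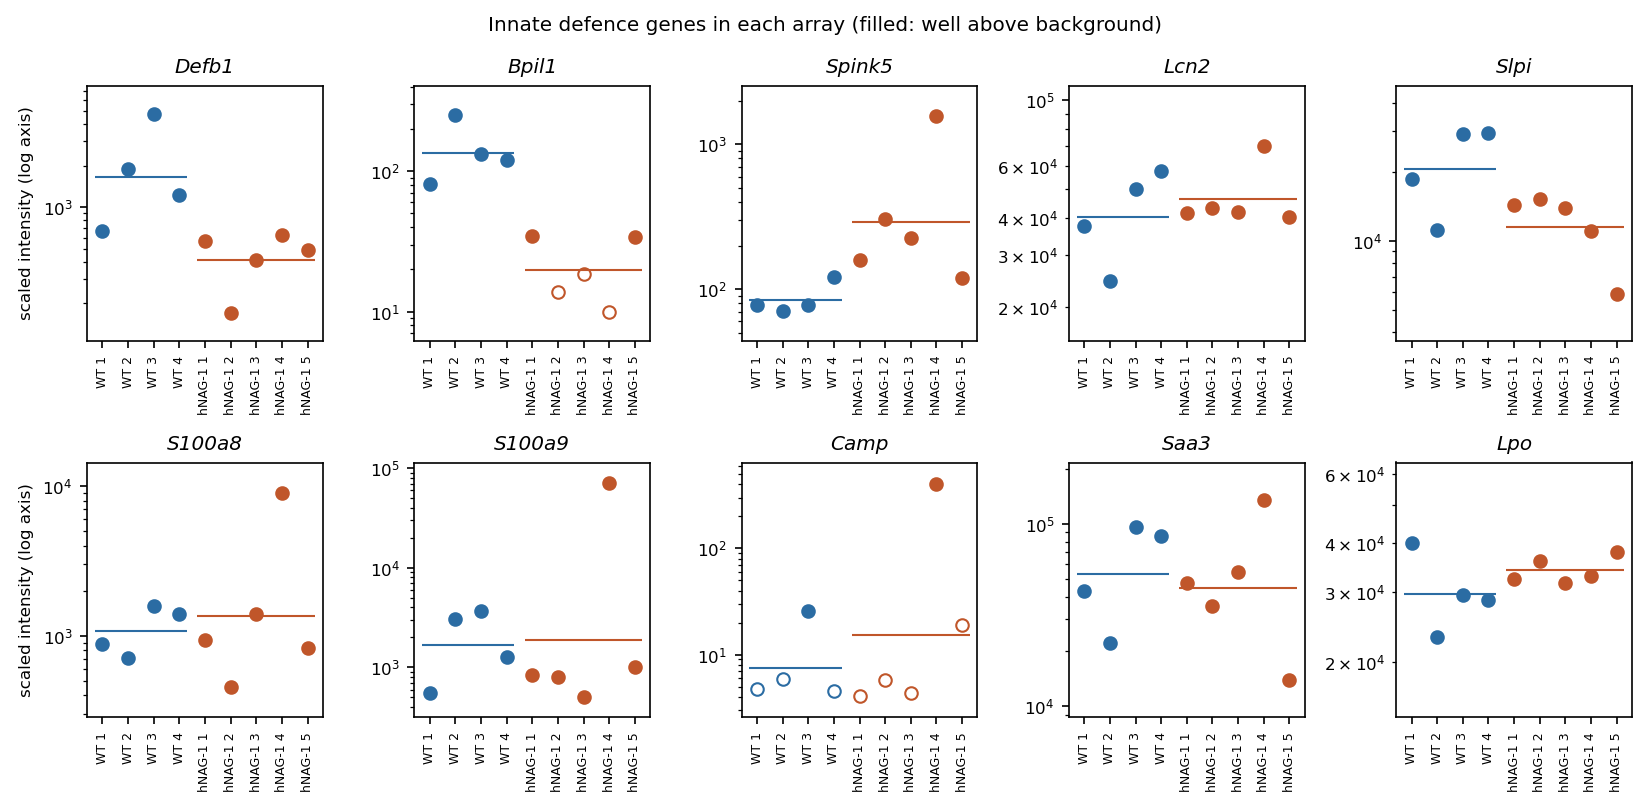
Scaled intensity (log axis) of the brightest probe of each of the 10 genes in the 4 WT arrays (blue) and the 5 hNAG-1 arrays (orange). Filled points are well above background, open points are not, and lines are geometric means; Defb1 and Bpil1 separate the genotypes, and hNAG-1 4 is highest for Spink5, Lcn2, S100a8, S100a9, Camp and Saa3.

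The protease inhibitors Slpi and Spink5 had differences of opposite sign. The scaled intensity of Slpi (A_52_P472324) was 18589.5, 11117.5, 29086 and 29493 in WT and 14362, 15211, 13937, 11024 and 5880.5 in hNAG-1. WT 2 lay within the hNAG-1 range and the other 3 WT arrays above it. The WT mean was 22071 ± 8877 (SD, n = 4) and the hNAG-1 mean 12083 ± 3808 (SD, n = 5), for a log2 difference of -0.84 (standard error 0.37). It was -0.83 without hNAG-1 4 and -1.85 with slide as a block. The other Slpi probe (A_51_P135148) was not well above background on any WT array and was so on 1 of 5 hNAG-1 arrays, with values of 5.21 to 13.9 in WT and 7.64 to 39.1 in hNAG-1.

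Spink5, the inhibitor of epidermal kallikreins, was 77.8, 70.3, 77.9 and 121 in WT and 159, 303, 227, 1583 and 119 in hNAG-1. It was well above background on all 9 arrays. Of the 5 hNAG-1 arrays 4 were above every WT array, and hNAG-1 5 lay just under WT 4. The WT mean was 86.7 ± 23.1 (SD, n = 4) and the hNAG-1 mean 478 ± 621 (SD, n = 5), and the log2 difference was 1.78 (standard error 0.67). It was 1.16 without hNAG-1 4 and 0.45 within slide 3, where hNAG-1 5 was set against WT values of 70.3, 77.9 and 121. The 4 hNAG-1 arrays above the WT range were all on slide 2, which held no WT array, so for these genotype and slide cannot be told apart.

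The granulocyte proteins S100a8, S100a9 and Camp did not separate the genotypes. The scaled intensity of S100a8 was 877, 714, 1572 and 1389.8 in WT and 943, 455, 1388, 9017 and 826 in hNAG-1. That of S100a9 was 557, 3064, 3703 and 1268 in WT and 839, 808, 504, 71219.5 and 1005.6 in hNAG-1. In both genes hNAG-1 4 exceeded every other array, 5.74-fold for S100a8 and 19.2-fold for S100a9 over the highest of the other 8. Without that array the 4 hNAG-1 values of either gene lay within or below the WT range. The log2 difference of S100a8 went from 0.32 (standard error 0.76) to -0.37, and that of S100a9 from 0.17 (standard error 1.39) to -1.14.

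Camp was well above background on WT 3 (25.5) and on hNAG-1 4 (402) and on no other array. The other WT values were 4.75, 5.87 and 4.54, and the other hNAG-1 values 4.09, 5.81, 4.38 and 19.0. The log2 difference was 1.01 (standard error 1.31) over all arrays and -0.18 without hNAG-1 4, and with most values near background neither has a firm size. These 3 genes had the widest spread within genotypes of the 10, with SDs of log2 above those of 98.1% (S100a8), 99.9% (S100a9) and 99.8% (Camp) of the probes well above background.

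**Figure D2:**
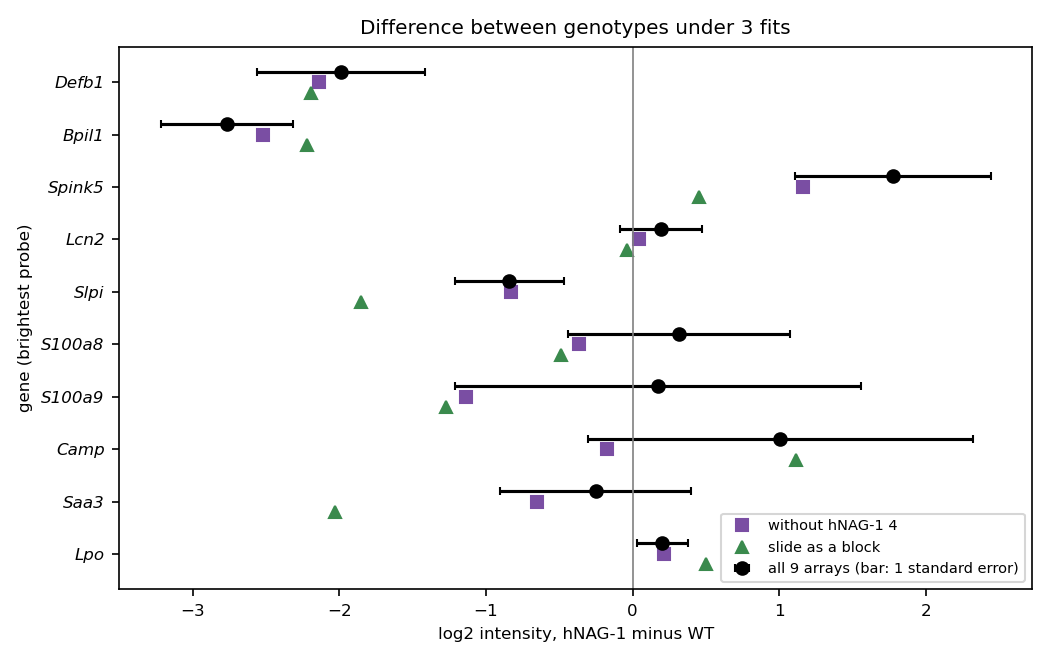
Log2 difference between hNAG-1 and WT for the brightest probe of each gene, over all 9 arrays (circles, with 1 standard error), without hNAG-1 4 (squares) and with slide as a block (triangles). Defb1, Bpil1, Slpi and Saa3 stay below 0 and Spink5 and Lpo above 0 in all 3 fits, whereas S100a8, S100a9, Camp and Lcn2 change sign.

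Over the 12 probes, 5 had an unadjusted p under 0.05 in limma, 4 of them lower in hNAG-1, where 5.62% of all probes met this threshold in either direction, 4.42% lower and 1.2% higher. These were both Defb1 probes, Bpil1, Slpi and Spink5. In 3 probes of 2 genes the genotypes did not overlap, against 1.38% of all probes. Since the genes were chosen on this contrast, these counts are a description. No probe of the 12 had an adjusted p under 0.05 with Benjamini-Hochberg adjustment over all probes, against 0.00243% of all probes. Without WT 1 or without WT 3 the count at the unadjusted threshold was 3, and the share of all probes 4.98% or 3.95%. The median log2 difference was 0.18 over the 10 genes, each by its brightest probe, and -0.014 over all probes. The median over the genes was -0.51 without hNAG-1 4 and -0.88 with slide as a block. Of the 12 probes, 10, of 9 genes, were well above background throughout 1 genotype or both. Nearest to the unadjusted threshold were Slpi (A_52_P472324) on the inside, at a log2 difference of -0.84, and on the outside, farther from it, the dim second Slpi probe, which was not well above background in WT.

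The glands differed in a further way that did not follow genotype: 6 of the 10 genes were higher in hNAG-1 4 than in every other array, where 13.5% of all probes were, and 5.03% with hNAG-1 4 also well above background, as it was for all 6. Beside the 3 granulocyte genes these were Spink5 (5.22-fold over the highest of the other 8), Saa3 (1.41-fold) and Lcn2 (1.21-fold). This comparison of 1 array with the rest was chosen after the values were seen, and it has no replicate.

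Markers of epidermis were high in the same array. Of 16 keratinocyte markers 8 were highest in hNAG-1 4, with Lor, a protein of the cornified envelope, at 27011 against 114 to 313 elsewhere and Krt10, a keratin of the upper epidermis, at 17970.2 against 1477 to 2230.1. Dsg1a, a desmosomal cadherin of epidermis, was 167 against at most 5.92. The markers summed to 74692 in hNAG-1 4 and to 12532 to 24989 in the other arrays. Without Krt5, Krt14 and Trp63, which myoepithelial cells also express, the sum was 47137 against 2147 to 3306. Lor and Krt10 made up most of the 47137. Ivl (71.4), Dsg3 (9.43), Dsc1 (26.2), Sprr1b (7.81), Casp14 (24.8) and Trp63 (1322) were not highest in hNAG-1 4. Their highest values in the other arrays were 104, 40.0, 130, 73.2, 43.1 and 1483. Krt2 was not well above background on any array. The 2 probes of Krt1 disagreed: the brighter was 122 in hNAG-1 4, the lowest of the 9, and the other was highest there, at 368.

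Granulocyte and macrophage markers were high there as well. Of 14 neutrophil markers measured 8 were highest in hNAG-1 4, 7 of them also well above background there, among them Fpr1, a receptor for bacterial formyl peptides (2652 against at most 117), Mmp8, the neutrophil collagenase (783 against at most 38.0), Retnlg (891 against at most 129) and Ngp, a granule protein (372 against at most 95.2). The sum without Ltf, which milk epithelium itself makes, was 5770 against 330 to 1276. Elane was not well above background on any array, and Mpo was higher in WT 2 (241) than in hNAG-1 4 (143). The 2 probes of the chemokine receptor Il8rb disagreed, the brighter being 22.5 in hNAG-1 4 against 319 in hNAG-1 5 and the other 155 in hNAG-1 4, its highest. Of 8 macrophage markers 5 were highest in hNAG-1 4, and Emr1, the F4/80 antigen, was 10219 there against at most 3626. None of 12 luminal and milk markers, 7 adipocyte markers, 10 lymphocyte markers or 8 ductal and hormone-sensing markers was highest there. The lymphocyte markers nonetheless summed to 9821 there, against 1493 to 3280 in the other hNAG-1 arrays and 10371 and 65802 in WT 1 and WT 2. Of 8 salivary and lacrimal markers 2 were highest in hNAG-1 4, 1 of them well above background there. The part of these cell types in the member values of hNAG-1 4 was not tested.

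**Figure D3:**
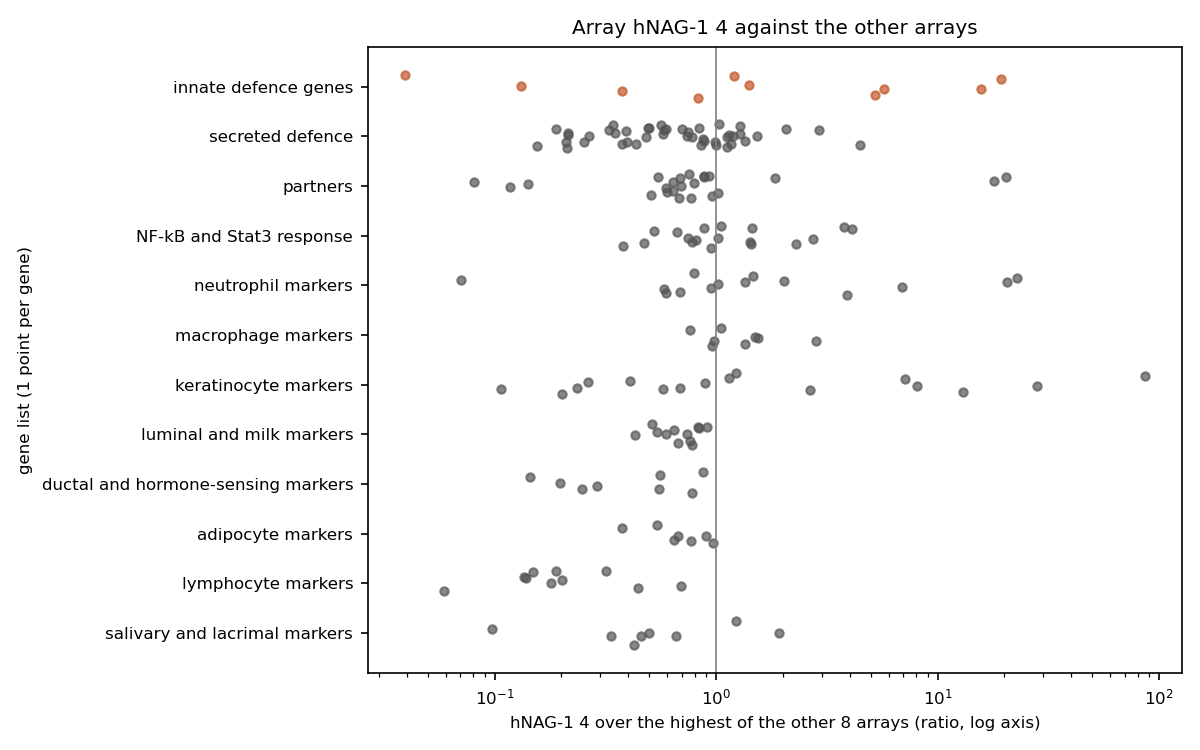
Scaled intensity in hNAG-1 4 over the highest of the other 8 arrays (ratio, log axis), 1 point for each gene, for the 10 innate defence genes (orange) and the other gene lists (grey). Points right of the line at 1 were highest in hNAG-1 4: 6 of 10 innate defence genes, 8 of 16 keratinocyte and 8 of 14 neutrophil markers (7 of these 8 well above background there), and none of the luminal and milk or adipocyte markers.

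Whether the genes moved together from mouse to mouse was asked for 4 pairs, with the mean of each genotype removed first so that the contrast used to choose the genes did not enter. Lcn2 and Saa3 had a Pearson r of 0.84 over 9 arrays (exact permutation test within genotypes, two-sided p = 0.00451, adjusted over 4 pairs 0.0181) and a Spearman rho of 0.82 (p = 0.0153, exact permutation test, adjusted 0.0611). Without the 2 arrays farthest from the median of Lcn2, hNAG-1 4 and WT 4, r was 0.72. It was 0.75 without hNAG-1 4 (exact permutation p = 0.0226) and 0.95 with the slide means removed as well.

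S100a8 and Lcn2 had an r of 0.71 (exact permutation p = 0.0142, adjusted 0.0285) and a rho of 0.70 (exact permutation p = 0.0451, adjusted 0.0903). Without hNAG-1 4 and hNAG-1 2, the 2 farthest arrays for S100a8, r was 0.81, and with slide means removed 0.70. It was 0.55 without hNAG-1 4 alone (exact permutation p = 0.134), so that this relation passed the test with hNAG-1 4 and not without it.

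The calprotectin partners S100a8 and S100a9 had an r of 0.83 with an exact permutation p of 0.103 (adjusted 0.137) and a rho of 0.47 (exact permutation p = 0.232, adjusted 0.309). The relation rested on hNAG-1 4: without it r was -0.018, and without the 2 farthest arrays 0.27. Defb1 and Bpil1, the 2 genes without overlap of the genotypes, had an r of 0.36 within genotypes (exact permutation p = 0.369, adjusted 0.369) and a rho of 0.33 (exact permutation p = 0.415, adjusted 0.415). Without the 2 farthest arrays, WT 1 and hNAG-1 2, r was -0.10, with slide means removed 0.10, and without hNAG-1 4 0.63.

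**Figure D4:**
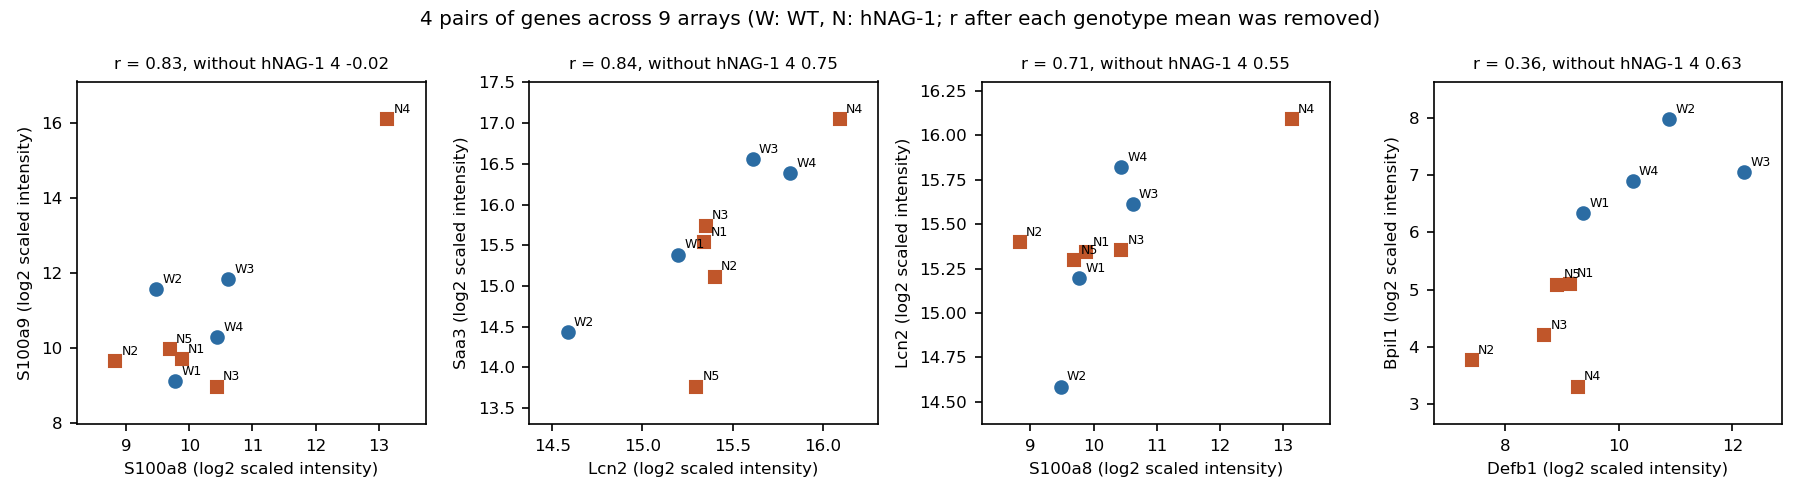
Log2 scaled intensity of 4 pairs of genes in the 9 arrays (circles W1 to W4, WT; squares N1 to N5, hNAG-1), with Pearson r after removal of each genotype's mean, for all arrays and without hNAG-1 4. Lcn2 and Saa3 vary together with and without hNAG-1 4 (0.84 and 0.75), whereas for S100a8 and S100a9 r is 0.83 with it and -0.02 without it.

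Promoter sequence was looked at for the 8 of the 10 genes with a RefSeq promoter (build GRCm38.p6), a choice made after the values were seen. The 250 bases before the start were searched on both strands for TTGCNNAA (C/EBP factors, which drive acute phase genes), GGG, any 2 bases and TTTCC (NF-kB) and TATAAA. The C/EBP letters were found in 4 of 8 genes, Lcn2, Saa3, S100a9 and Slpi, and in 9.56% of 32851 promoters. The NF-kB letters were found in 0 of 8 genes (1.41% of promoters), and TATAAA in S100a8 (12.4% of promoters). No match overlapped another. The windows of the C/EBP matches are shown with the match in capitals, all on the minus strand of the genome and read toward the gene. Lcn2 and S100a9 hold the letters as written above, and Saa3 and Slpi hold their reverse complement.
Lcn2 chr2:32387935-32387964: cccttcctgTTGCTCAAccttgcacagttc
Saa3 chr7:46715755-46715784: taagtgggaTTATGCAAgatcaaacaggga
S100a9 chr3:90695937-90695966: taggctgtcTTGCTTAAgatttgggcgggg
Slpi chr2:164356728-164356757: gaatttgtaTTGAGCAAtaggttagagttt
The matches began 216, 99, 236 and 241 bases before the start. A match of letters is a description of the sequence and no evidence of binding. Among the C/EBP factors, Cebpd had a log2 difference of -0.26 between hNAG-1 and WT, and the 2 probes of Cebpb had 0.40 for the brighter and 0.73 for the other. The dimmer Cebpb probe had an unadjusted p under 0.05 and no probe of these genes an adjusted p under 0.05, and within slide 3 the Cebpb differences were 0.14 and 0.10.

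Other secreted defence genes were taken from a list of 47, of which 45 had a probe. In hNAG-1, 20 of them were higher and 25 lower, with a median log2 difference of -0.05 against -0.014 for all probes. The median was -0.27 without hNAG-1 4, 0.16 with median scaling and 0.14 with slide as a block. An unadjusted p under 0.05 was found for 4 of 45 (8.89%, against 5.62% of all probes) and an adjusted p under 0.05 for none (lowest adjusted p = 0.654, limma with Benjamini-Hochberg adjustment). The 4 were named after their values were seen. Lbp, which hands lipopolysaccharide to Cd14, and the mucin Muc1 had log2 differences of 0.47 and 0.61, and Bpil3, a relative of Bpil1, and the lectin Reg3g had -0.99 and -1.49. Reg3g was well above background on 2 WT arrays and on no hNAG-1 array, so the size of its difference was not measured. With slide as a block Muc1 was 0.29. The count was 2 without hNAG-1 2, 2 without hNAG-1 4 and 9 without hNAG-1 5, where 2.82%, 3.82% and 14.4% of all probes passed. Bpil3 was already known to be on the study's own list of changed probes, so its lower value is not independent support for that of Bpil1. Its scaled intensity was 346, 318, 313 and 403 in WT and 302, 124, 94.96, 140 and 312 in hNAG-1, and the log2 difference within slide 3 was -0.13.

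Of the 45, the largest log2 differences among probes well above background throughout a genotype were those of Defb2, another beta-defensin, Bpil3 and the acute phase protein Orm2 (0.80), none with an adjusted p under 0.05. Defb2 was 24.6 to 39.1 in WT, and 4.32 to 19.6 in hNAG-1 1 to 4 with 91.3 in hNAG-1 5. It passed the background test in 4 of 4 WT arrays but in only 1 of 5 hNAG-1 arrays, and its log2 difference with slide as a block was 1.69. Defb3, another beta-defensin, was 192 to 230 in WT and 82.3 to 261 in hNAG-1. Ltf, the lactoferrin of milk, and Pigr, which carries antibodies into milk, had log2 differences of 0.02 and 0.18, and -0.21 and -0.065 within slide 3. Saa1 and Saa2, acute phase relatives of Saa3 that are near-identical to each other, differed by -0.050 and -0.054 on the log2 scale. These were -0.28 and -0.27 without hNAG-1 4, and -1.35 and -1.26 with slide as a block. In this list 13 of 45 genes were highest in hNAG-1 4, against 13.5% of all probes. Highest and also well above background there were 11 of the 45, against 5.03% of all probes. Among these were Defb6 (317 against at most 70.8), Spink8 (874 against at most 299.9) and Pglyrp1 (1310 against at most 633). Others of the list were lowest there, such as Wfdc2 (1672 against at least 1726) and Wfdc12 (2069 against at least 2885).

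Receptors, target proteases, oxidant sources and transporters through which these proteins act had a median log2 difference of -0.050 over 23 genes, which was 0.16 after median scaling and 0.20 within slide 3, and none had an adjusted p under 0.05 (limma with Benjamini-Hochberg adjustment). The largest differences were those of Ccr6, a receptor for beta-defensins (-1.38), Duox2, a source of hydrogen peroxide for Lpo (-0.53), and Scarb1, a receptor for serum amyloid A (0.39). Within slide 3 Duox2 had the opposite sign (0.20). Ccr6 was 2183 in WT 2 and 69.6 to 365 in the other arrays, and WT 2 also held the highest sum of lymphocyte markers. Fpr2, a receptor for the cathelicidin peptide, was 950 in hNAG-1 4 and 5.01 to 46.8 elsewhere, and Klk5, a kallikrein inhibited by LEKTI, was 119 in hNAG-1 4 and at most 6.61 elsewhere.

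In 18 genes of the NF-kB and Stat3 response, each by its brightest probe, 6 were higher and 12 lower in hNAG-1. None of these probes had an unadjusted p under 0.05, though the dimmer Cebpb probe had. The median log2 difference was -0.15. It was -0.31 without hNAG-1 4, 0.063 with median scaling and -0.38 when slide was a block. Socs3, the feedback inhibitor of Stat3 (-1.17), the chemokine Cxcl1 (0.75) and Tnfaip3, a feedback inhibitor of NF-kB (-0.53), had the largest differences. That of Cxcl1 was 0.13 without hNAG-1 4 and 1.28 within slide 3, and that of Tnfaip3 was -0.87 and -1.04. Socs3 was 1626 to 6785 in WT and 902 to 3564 in hNAG-1, with overlap. Of the 18 genes 9 were highest in hNAG-1 4, against 13.5% of all probes. Highest and also well above background there were 8 of the 18, against 5.03% of all probes. Among these were Il1b (1989 against at most 485), Cxcl1 (1123 against at most 298) and Bcl3 (10430.4 against at most 4545).

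The marker lists of other cell types gave at most 1 gene each at an unadjusted p under 0.05, where 5.62% of all probes passed. These were Krt1 (1 of 16, log2 difference -0.68), the complement receptor Cr2 of B cells (1 of 10, -0.75) and the salivary gene Psp (1 of 8, -0.56). Psp passed the background test in all WT arrays but in 2 of 5 hNAG-1 arrays. The other Krt1 probe had a log2 difference of 1.00 and passed the background test in hNAG-1 4 alone, and with slide as a block Cr2 was 0.22 and Psp 0.083. Median log2 differences were -0.20 for neutrophil, -0.05 for macrophage, 0.26 for keratinocyte, 0.13 for luminal and milk, 0.09 for ductal and hormone-sensing, 0.45 for adipocyte and 0.45 for salivary and lacrimal markers. Without hNAG-1 4 the medians were -0.51 for neutrophil, -0.27 for macrophage, -0.12 for keratinocyte, 0.16 for luminal and milk, 0.17 for ductal and hormone-sensing, 0.42 for adipocyte, 0.33 for salivary and lacrimal and -1.61 for lymphocyte markers. With slide as a block they were 0.12 for neutrophil, -0.46 for macrophage, 0.47 for keratinocyte, 0.22 for luminal and milk, -0.080 for ductal and hormone-sensing, 0.14 for adipocyte, 1.16 for salivary and lacrimal and -0.88 for lymphocyte markers. All 10 lymphocyte markers were lower in hNAG-1, with a median of -1.20. Their sum was 65802 in WT 2, 10371 in WT 1, 9821 in hNAG-1 4 and 1493 to 3280 in the other arrays. The part of these cells in the member values was not tested. Among probes well above background throughout a genotype, the genes with the largest differences in these lists were Il8rb, Ngp and a probe named Stfa3 for neutrophils, Lyz2 (-0.31), Cd163 (-0.22) and Emr1 (0.22) for macrophages, and Lor (1.21), Krt10 (0.75) and Casp14 for keratinocytes. Without hNAG-1 4 Emr1 was -0.27, Lor -0.23 and Krt10 0.12, and Lyz2 was -0.61, while Emr1 was -0.57 and Cd163 -0.050 within slide 3. Il8rb and Ngp passed the background test in 3 of 5 hNAG-1 arrays and Casp14 in 2, and the signs of Il8rb, Ngp, Stfa3 and Casp14, lower over all arrays, turned with slide as a block (1.23, 0.17, 0.22 and 0.37). Under the same filter they were Lalba (0.35), Ceacam1 (0.20) and Elf5 (0.17) for luminal cells, Ly6a (0.48), Foxa1 and Esr1 (0.27) for ductal cells, and Retn (1.00), Plin1 (0.53) and Adipoq (0.50) for adipocytes. The 3 ductal genes turned sign within slide 3, Ly6a to -0.14, Foxa1 from lower to 1.00 and Esr1 to -0.67. For lymphocytes they were Ccr7 (-1.95), Cd79b (-1.52) and Ltb (-1.36), and for salivary and lacrimal glands Pip (0.70, and 0.32 without hNAG-1 4), Amy1 (0.60) and Psp. None had an adjusted p under 0.05 in limma.

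By their pattern over the 9 arrays, genotype difference included, the named genes most like Defb1 were Fer1l4 (Pearson r = 0.94), Ak7, Gdf15 (0.94), Gpr97 and Krtap16-10. Those most like Bpil1 were Lrig2 (r = 0.95), Ctse, Rragd, Ltb4r2 and Suhw3, and those most like Spink5 were Rwdd1 (r = 0.97), Stom, D11Wsu47e, Ap3d1 and Dmkn, a protein of the upper epidermis. Dmkn had a mean of 519.6 in WT and 1502 in hNAG-1, and 1216 without hNAG-1 4. Over the 8 arrays without hNAG-1 4, r with Spink5 was 0.76 for Stom and 0.92 to 0.96 for the other 4 genes. These are the highest of the correlations with all named probes well above background throughout 1 genotype or both. The arrays share slides and scaling, and the correlations are given as a description. In hNAG-1 4 the readings of Rragd (15.6), Ltb4r2 (27.7) and Suhw3 (14.8) lay, like that of Bpil1, under its lowest intensity well above background (31.7).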

How the data were processed

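For 9 1-color Agilent arrays the authors deposited background-subtracted intensity per feature from Feature Extraction 9.5.3.1, with no normalization across arrays. The series table held identical values (largest difference 0). The study used OmicSoft Array Studio for an ANOVA with thresholds on p, fold change and intensity. Probe coordinates and gene names are those of the array's design (mouse build mm7).

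Controls were removed, repeated features of 245 probes averaged, and each array was scaled to a common 75th percentile of 760 before log2. This left 41174 probes, 26762 of them well above background throughout 1 genotype or both. Genotypes were compared with limma 3.58.1 in R 4.3.3 (lmFit and eBayes, two-sided, 7 residual degrees of freedom, Benjamini-Hochberg over all probes). On simulated data with 41174 probes, 55.5%, 77.5% and 93.5% of probes changed 1.5-, 2- and 4-fold had an unadjusted p under 0.05 for this contrast, and 0%, 16% and 70.5% an adjusted one. The simulation drew independent normal values with each probe's own mean and SD, without slide effects or an outlying array. Its rates are averages over all probes and need not hold for the members, most of which had a wide spread. In the lists, the probe of a gene with the highest mean was used. The lowest scaled intensity well above background was 14.4 to 31.7 per array. Probe sequences come from the scanner files, and promoters from RefSeq.

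The members and the lists were chosen with earlier results of these data known. Named genes were every member, the genes of each list with an adjusted p under 0.05 or otherwise the 3 with the largest difference among probes well above background, and the 5 most like Defb1, Bpil1 and Spink5. Genes cited for hNAG-1 4, the values without it in the lists, the sequences printed and the promoter search were chosen after the members' values were seen. Of the lists, 5 neutrophil, 3 secreted defence, 3 partner and 1 macrophage gene are also in another list. The alternatives were other background correction, scaling and filters, outlier features left out, other limma settings, slide and replicate number as blocks, slide 3 alone, the methods' test, the series table, the mean over probes and each mouse left out in turn. The adjusted threshold was added later. Proteins were not analysed here, and the count of partner genes at an unadjusted p is not reported here.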

Additional observations from a re-analysis of the deposited data

Results flagged for a closer look

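Of 24 groups of 4 or 5 values of a probe in 1 genotype, 7 held a value far from the rest by Dixon's test, where chance gives about 1 in 20 for normally distributed values. These values were not log-transformed, and the 2 Defb1 probes overlap, so the chance rate here is not known. In 5 of the 7 the value was that of hNAG-1 4: Spink5 at 1583, Lcn2 at 69889.6, S100a8 at 9017, S100a9 at 71219.5 and Camp at 402. The others were WT 4 for Spink5, at 121, and WT 3 for Camp, at 25.5. The values of the remaining arrays stand in the text above, and their cause was not tested.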

How the results depend on the processing

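Over the alternatives Defb1 stayed lower in hNAG-1 (log2 difference -2.42 to -1.48), as did Bpil1 (-3.01 to -1.16), and Spink5 (0.45 to 2.10) and Lpo (0.05 to 0.50) stayed higher. Lcn2, S100a8, S100a9, Camp and Saa3 changed sign under at least 1, and Slpi was 0.056 with the mean over its probes, of which the second was not well above background on any WT array. Of the 12 probes, 5 passed the unadjusted threshold, and 3 did so with slide as a fixed block, 3 on slide 3 alone (both of these set hNAG-1 5, the 1 hNAG-1 array of slide 3, against 3 WT arrays), 3 by the methods' test, 0 with an adjusted p and 3 to 5 with 1 mouse left out. Of the 45 secreted defence genes 4 passed, against 2 without scaling, 11 with array weights, 2 with slide as a fixed block, 2 by the methods' test, 0 with an adjusted p and 2 to 9 with 1 mouse left out. The share of all probes that passed was 5.62%, and 5.02% without scaling, 15.2% with array weights, 7.58% with slide as a fixed block, 4.87% by the methods' test and 2.82% to 14.4% with 1 mouse left out. Without scaling between arrays r was 0.85 for S100a8 and S100a9 (exact permutation p = 0.0378), 0.64 for Lcn2 and Saa3 (exact permutation p = 0.0868) and 0.63 for S100a8 and Lcn2 (exact permutation p = 0.0712). For Defb1 and Bpil1 r was 0.10 with slide means removed. The cause of these changes was not tested. The median over all probes moved from -0.014 to 0.20 with median scaling, -0.16 without scaling and 0.19 with slide as a block, and the share of called probes higher in hNAG-1 moved from 21.4% to 54.2% with normexp, 57.5% with quantile normalization, 70.7% with median scaling, 2.86% without scaling, 90.6% with slide as a fixed block and 91.4% on slide 3 alone.

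The replicate numbers do not pair the samples: arrays with the same number had correlations of 0.28, -0.20, -0.14 and -0.31. With the replicate block, which drops hNAG-1 5 for want of a partner, 11 secreted defence genes passed the unadjusted threshold, as did 13.1% of all probes. Signal over background limits Bpil1, Camp and the second Slpi probe.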
